A study of Mus musculus with 8 samples.

Results

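Voltage-gated calcium channels are assembled from a pore-forming alpha-1 subunit and auxiliary subunits. The 10 genes of this family described here are Cacna1a, Cacna1c, Cacna1d, Cacna1g, Cacna1h, Cacna2d1, Cacnb1, Cacnb2, Cacnb3 and Cacnb4. They were matched by mouse Entrez gene ID to the genes of the array, 10 of 24235 in all. The family was selected on a measured value: Cacna1a had been called higher with 17β-estradiol (E2) in cells given FOXL2 siRNA in an earlier analysis of the same arrays. For Cacna1a, values that include those arrays are therefore given as a description, with no test.

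The cells were grown from preantral ovarian follicles of female Swiss mice that were 8 weeks old, each replicate from a pool of 5 mice, and were mostly granulosa cells, which support the oocyte. They were kept for 9 days in culture, the last of them in hormone-free medium, and every well was transfected together with a reporter plasmid. The 4 groups of 2 arrays were control siRNA + vehicle, control siRNA + E2, FOXL2 siRNA + vehicle and FOXL2 siRNA + E2. Cells had 12 pmol of a siRNA pool for 24 h, after which 100 nM E2 or vehicle was given for 10 h. The comparisons ask how E2 and depletion of FOXL2, a transcription factor of granulosa cells, change transcript levels.

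As background, the alpha-1 subunit forms the pore, senses voltage and sets the type of current. Cacna1a encodes the pore of P/Q-type channels, Cacna1c and Cacna1d those of L-type channels, and Cacna1g and Cacna1h those of T-type channels, which open at weak depolarisation. Cacna2d1 encodes an alpha-2-delta subunit, a largely extracellular protein that raises the number of channels at the surface and binds gabapentin. The Cacnb genes encode cytoplasmic beta subunits that bind the pore subunit, help it reach the membrane and tune its gating. In endocrine cells, calcium entering through such channels acts as a signal in secretion and transcription.

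Some facts of the arrays bear on every value below. A level is the log2 of the scaled signal, that is, the processed spot intensity scaled so that the 75th percentile of each array lay at 320 units. Levels of different genes come from different probes and were not ranked against each other. The 2 arrays of each group gave a Pearson's r of 0.989 to 0.992 across genes and held no identical pair of profiles. Foxl2 itself lay at 12.76 to 13.46 on the arrays labelled control siRNA and at 12.96 to 13.41 on the arrays labelled FOXL2 siRNA, a change of 0.18 over both treatments (SE 0.10, limma adjusted p = 0.334). Its probe A_55_P2041668 was lower by 0.97 (SE 0.19, limma adjusted p = 0.0164), at 6.35 to 7.00 with control siRNA and 5.47 to 6.03 with FOXL2 siRNA, while probe A_55_P2037732 was not, so groups are named below as the arrays are labelled. Of 9 granulosa markers, 6 were well above background on all 8 arrays, whereas Fshr and Amh were on none.

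The promoter of Cacna2d1 is printed because Cacna2d1 was the 1 member called lower in the arrays labelled FOXL2 siRNA over both treatments, and a Cacnb3 promoter is set beside it for comparison. Both run 5′ to 3′ on the plus strand of GRCm38.p6, from 250 bases before to 50 bases after the start, and were taken from RefSeq. Cacna2d1 lies at chr5:15934441-15934740 and Cacnb3 at chr15:98634517-98634816, with copies of the GC box CCGCCC, on either strand, in capitals.
Cacna2d1: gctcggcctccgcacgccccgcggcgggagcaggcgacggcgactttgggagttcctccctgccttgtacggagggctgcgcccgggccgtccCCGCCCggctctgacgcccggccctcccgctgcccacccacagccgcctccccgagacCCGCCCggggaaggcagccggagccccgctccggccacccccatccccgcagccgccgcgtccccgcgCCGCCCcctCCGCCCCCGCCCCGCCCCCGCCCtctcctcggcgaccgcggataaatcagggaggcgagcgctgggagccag
Cacnb3: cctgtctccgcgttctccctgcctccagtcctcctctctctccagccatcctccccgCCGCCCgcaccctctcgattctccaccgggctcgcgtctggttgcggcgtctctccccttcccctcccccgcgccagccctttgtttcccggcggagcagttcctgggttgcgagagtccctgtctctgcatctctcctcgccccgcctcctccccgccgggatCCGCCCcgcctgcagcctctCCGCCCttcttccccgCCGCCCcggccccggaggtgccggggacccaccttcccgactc

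The promoter table matched 7 of the 10 members, all but Cacna1a, Cacna1g and Cacna1h, with 15 promoters. The Cacna2d1 sequence is 80.0% G and C with 42 CpG dinucleotides, against medians of 52.7% and 7 over 32851 promoters. It holds 7 GC boxes, some overlapping, and the Cacnb3 sequence holds 4. A GC box was present in 35.7% of all promoters and in 8 of the 15 member promoters, at least 1 for each of the 7 genes. A further 4 motifs were searched on both strands, and 0 of the 15 held any. These were the estrogen response element, GGTCA and TGACC with any 3 bases between them (in 0.0700% of all promoters), the nuclear receptor half-site AGGTCA that it partly contains (16.3%), the forkhead core GTAAACA (3.65%) and GTCAAGG, part of a sequence that FOXL2 is known to bind (3.18%). A match or its absence describes these letters in this window.

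Of the 10 members, 5 were well above background on all 8 arrays: the pore genes Cacna1a and Cacna1h, the alpha-2-delta gene Cacna2d1 and the beta genes Cacnb1 and Cacnb3. These 5 also passed the filter, a median of at least 10 units over the 8 arrays, and entered the fit with 15638 genes in all. The lowest median among the members kept was that of Cacnb1, 87.0 units, well above the filter. The highest among those left out was that of Cacnb4, 8.21 units. Cacna1c and Cacna1g were well above background on 0 of 8 arrays, Cacna1d on 2, Cacnb2 on 1 and Cacnb4 on 1. In each of the 2 gene classes with several members, the pore genes and the beta genes, 2 were therefore detected throughout.

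**Figure D1:**
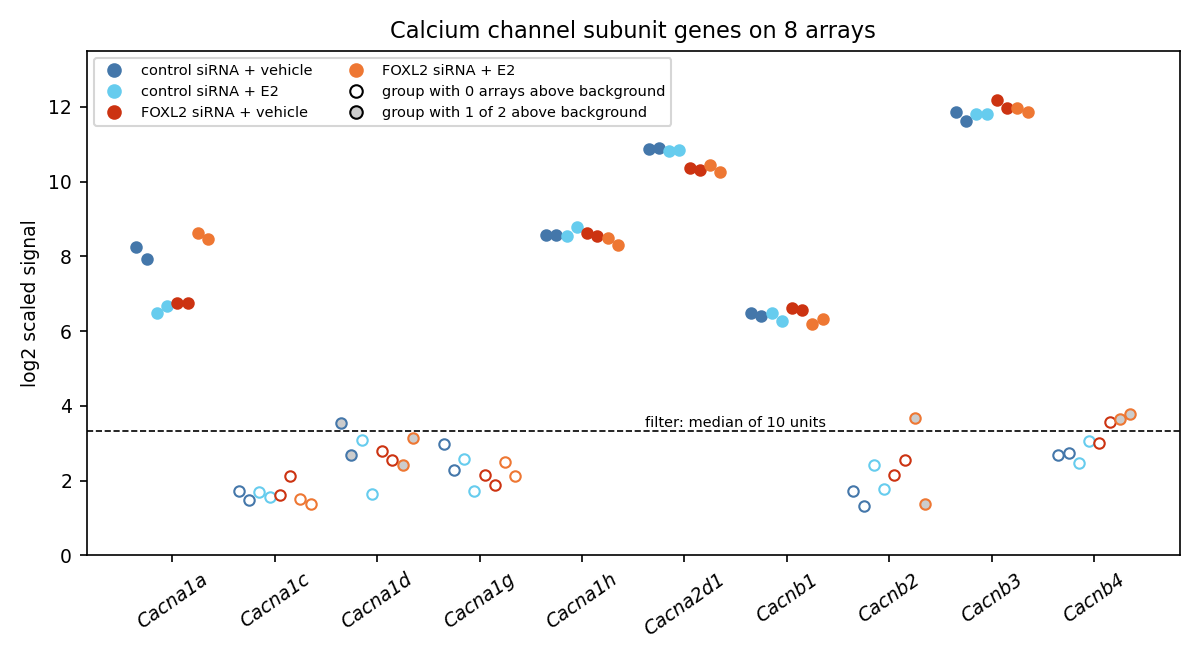
Log2 scaled signal of the 10 members on each of the 8 arrays, coloured by group, with hollow points where 0 of the 2 arrays of a group were well above background and grey points where 1 was. The 5 detected members lie above 6, and the other 5 scatter around or under the filter at a median of 10 units (dashed line).

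The detected members differed in how far they spread over the arrays. Cacna1a ranged over 2.16 on the log2 scale, more than 95.6% of the genes kept. Cacna2d1 ranged over 0.64, Cacnb3 over 0.55, Cacna1h over 0.50 and Cacnb1 over 0.42, which was more than 59.4%, 51.6%, 46.3% and 36.8% of the genes. The range of Cacna1a was thus among the widest of the genes kept. It includes the arrays that the gene was chosen on, so nothing is read from its rank. The other detected members sat near the middle.

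Cacna1a, the P/Q-type pore gene, took a high and a low level. It lay at 8.26 and 7.94 with control siRNA + vehicle and at 6.47 and 6.68 with control siRNA + E2. Among those labelled FOXL2 siRNA it lay at 6.75 and 6.76 with vehicle and at 8.63 and 8.46 with E2. No pair of groups overlapped. Such a gap held for 27.2% of all genes between the control siRNA groups and 27.6% between the FOXL2 siRNA groups. Between the siRNAs it held for 46% with vehicle and 48% with E2, and no share was computed for the crosswise pairs. The 2 groups at the high level were control siRNA + vehicle and FOXL2 siRNA + E2, and the 2 at the low level were the others.

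With control siRNA, Cacna1a was thus lower with E2, by 1.52 (log2 change -1.52, SE 0.16), or at 34.8% of the vehicle level. In the limma fit this did not pass the threshold (adjusted p = 0.0542), and the comparison called 0 of the 5 members, where 0.0192% of all genes were called and 716 genes had an unadjusted p under 0.05, Cacna1a among them. With the replicate number as a block it passed (adjusted p = 0.00029 in limma), where 1.16% of all genes were called. Nothing is read from either p-value of Cacna1a, since the spread of both fits includes the arrays it was chosen on. This direction is opposite to the one in the study's own table for E2 with control siRNA, which has the direction that exchanging the vehicle and E2 labels of the control siRNA arrays would give. The reversal was not limited to Cacna1a. Genes were also counted by a difference of at least 1 that exceeds 2 times the summed SDs. As labelled, E2 gave 9 genes higher and 62 lower with control siRNA, and 25 higher and 9 lower with FOXL2 siRNA. The paper describes nearly all of its E2 targets as activated. Signs that treat the 2 control siRNA groups differently therefore rest on the deposited labels. FOXL2 siRNA over both treatments uses both groups alike and called 1971 genes either way. By construction, the exchange swaps 2 other comparisons. E2 over both siRNAs would call 38 genes, 37 higher, and the difference between the E2 effects 0, against 0 and 38 as labelled. Which labels hold was not tested. With FOXL2 siRNA, Cacna1a was 3.47-fold higher with E2 (log2 change 1.80, SE 0.16). This is the comparison that brought the family forward: 1 of the 5 members was called in it, with 0.0128% of all genes, and nothing is read from that count.

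**Figure D2:**
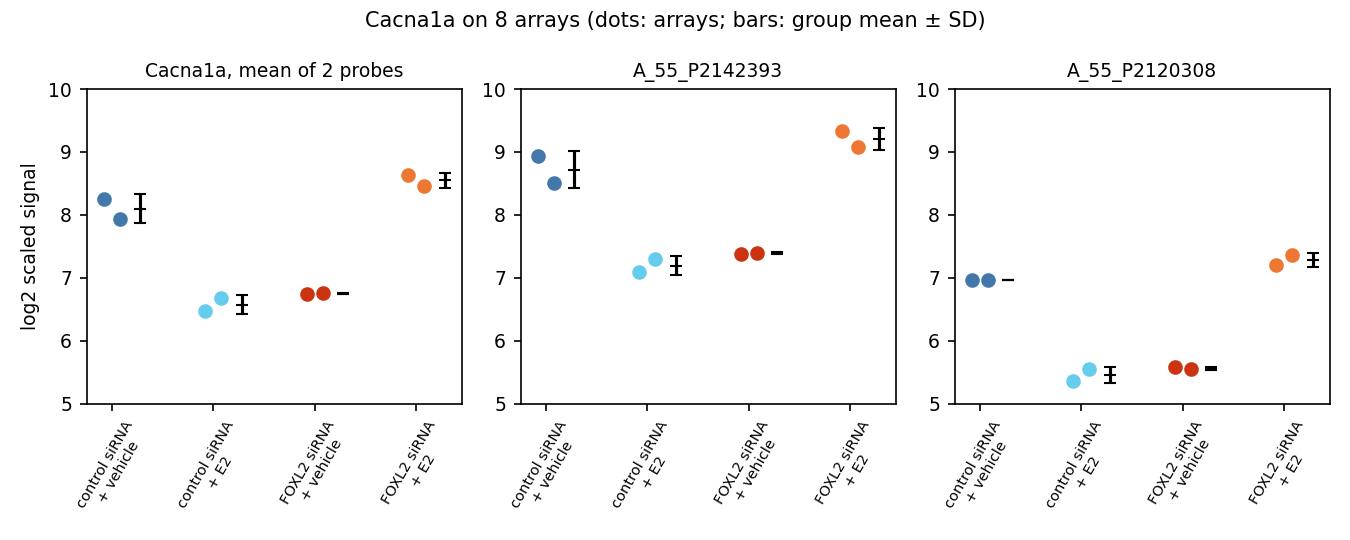
Log2 scaled signal of Cacna1a per array for the mean of its 2 probes and for each probe, with dots for arrays and bars for the group mean and SD (n = 2). Both probes show the high level in control siRNA + vehicle and FOXL2 siRNA + E2 and the low level in the other groups.

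The 2 probes of Cacna1a, both matched to its RefSeq transcript, moved together. Probe A_55_P2142393 changed with E2 by -1.52 (SE 0.17) with control siRNA and by 1.81 with FOXL2 siRNA. Probe A_55_P2120308 changed by -1.50 (SE 0.17) and 1.72. Both were well above background on 8 of 8 arrays, so the pattern did not rest on 1 probe. The difference between the E2 effects was 3.34 and 3.22 by probe and 3.32 (SE 0.22) for the gene. With the control siRNA labels exchanged, Cacna1a would instead be 1.52 higher with E2 under control siRNA, and the difference would be 0.27 (SE 0.22), so the opposite directions depend on those labels.

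Read across the siRNAs, Cacna1a was at 39.4% of the control siRNA level with vehicle (log2 change -1.35, SE 0.16) and 3.92-fold higher with E2 (1.97, SE 0.16). Averaged over both treatments these opposite changes left 0.31 (SE 0.11). Set crosswise, FOXL2 siRNA + E2 exceeded control siRNA + vehicle by 0.45 (SE 0.16), and FOXL2 siRNA + vehicle exceeded control siRNA + E2 by 0.18 (SE 0.16). The crosswise differences were several times smaller than the differences within each siRNA, and they are the siRNA changes with E2 and with vehicle if the control siRNA labels are exchanged.

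Cacna2d1, the alpha-2-delta gene, fell in the arrays labelled FOXL2 siRNA, with no call for E2. It lay at 10.88 and 10.90 with control siRNA + vehicle and at 10.82 and 10.84 with control siRNA + E2. Among those labelled FOXL2 siRNA it lay at 10.38 and 10.32 with vehicle and at 10.43 and 10.26 with E2. All 4 arrays labelled FOXL2 siRNA were below all 4 labelled control siRNA. Between the siRNA groups, no overlap held for 46% of all genes with vehicle and 48% with E2, and no share was computed for 4 arrays against 4.

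The change with vehicle was -0.54 (SE 0.09, limma adjusted p = 0.0147), or 68.7% of the control siRNA level. With E2 it was -0.49 (SE 0.09, limma adjusted p = 0.0285), and over both treatments -0.51 (SE 0.07, limma adjusted p = 0.0025). Set crosswise, against the control siRNA group with the other treatment, it was -0.54 with E2 (limma adjusted p = 0.0192, with 4.89% of all genes called) and -0.49 with vehicle (limma adjusted p = 0.0277, with 4.67% called), so the fall did not depend on which control siRNA group was taken. The E2 effect was -0.06 with control siRNA (95% interval -0.27 to 0.16) and -0.00 with FOXL2 siRNA (-0.21 to 0.21). Both probes of Cacna2d1 fell with vehicle, by 0.54 each (limma adjusted p = 0.0421 and 0.0166). With E2 both changed by -0.49, and A_55_P1988699 passed (limma adjusted p = 0.0329) while A_51_P498720 did not (limma adjusted p = 0.0762). The calls by treatment are near the threshold: leaving out any 1 of the 4 arrays compared raised the adjusted p to between 0.0583 and 0.0956 with vehicle and between 0.0507 and 0.188 with E2, while the call over both treatments held in each of those fits.

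**Figure D3:**
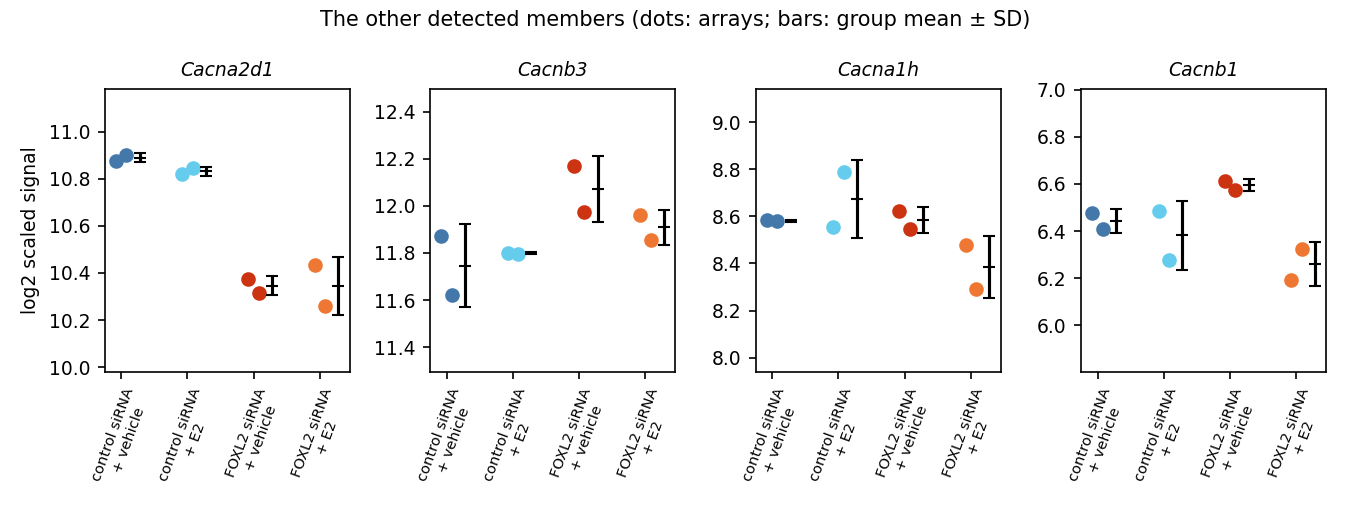
Log2 scaled signal of Cacna2d1, Cacnb3, Cacna1h and Cacnb1 per array, with dots for arrays and bars for the group mean and SD (n = 2), each panel spanning 1.2 log2 units. The 4 arrays labelled FOXL2 siRNA lie below the others for Cacna2d1, at 10.26 to 10.43.

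The members called are given beside the share of all genes called, and nothing is read from the calls of Cacna1a, which was chosen for its values on some of these arrays. FOXL2 siRNA against control siRNA with vehicle called 2 of the 5 members, Cacna1a and Cacna2d1, both lower, and 6.57% of all genes. With E2 it called the same 2, Cacna1a higher and Cacna2d1 lower, and 4.39% of all genes. Over both treatments it called Cacna2d1 alone, and 12.6% of all genes. The median change of the 5 members was 0.00, -0.12 and 0.01, and that of all genes -0.01, 0.00 and -0.00. The difference between the E2 effects called Cacna1a alone, the gene chosen for its E2 change, and 0.243% of all genes. E2 against vehicle over both siRNAs called 0 members in the limma fit, 0% of all genes, with 360 genes and 0 members at an unadjusted p under 0.05.

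**Figure D4:**
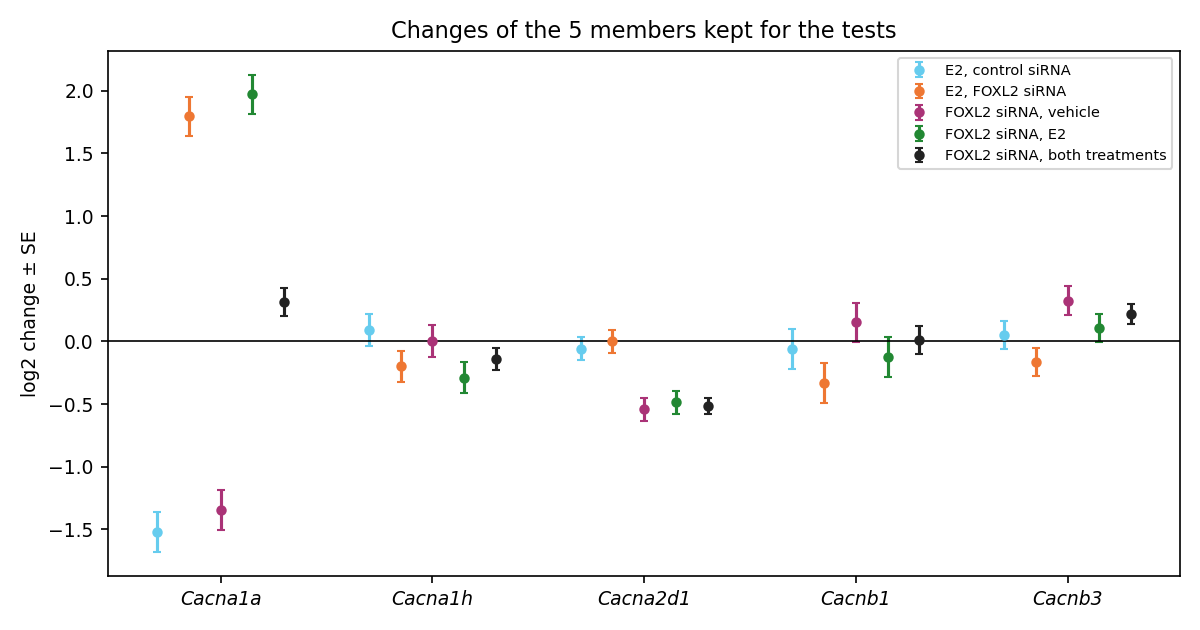
Log2 change with SE of the 5 members kept, in 5 comparisons. Cacna1a has changes of -1.52 and 1.80 with E2 and of -1.35 and 1.97 with FOXL2 siRNA, Cacna2d1 lies at -0.54 to -0.49 in the siRNA comparisons, and the others lie between -0.33 and 0.33.

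Among the beta subunits, Cacnb3 had levels of 11.87 and 11.62 with control siRNA + vehicle and 11.80 and 11.80 with control siRNA + E2. Among those labelled FOXL2 siRNA it lay at 12.17 and 11.97 with vehicle and at 11.96 and 11.86 with E2. The groups did not overlap within a treatment, which held for 46% of all genes with vehicle and 48% with E2. The differences were 0.33 with vehicle (SE 0.11, limma adjusted p = 0.154) and 0.22 over both treatments (SE 0.08, 95% interval 0.03 to 0.40, limma adjusted p = 0.125), neither of which passed. With the replicate number as a block both did (limma adjusted p = 0.0189 with vehicle, where 18.7% of all genes were called, and 0.0183 over both treatments, where 27.7% were).

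Cacnb1, the beta subunit best known from skeletal muscle, lay at 6.48 and 6.41, 6.49 and 6.28, 6.61 and 6.58, and 6.19 and 6.33, with the groups in the order control siRNA + vehicle, control siRNA + E2, FOXL2 siRNA + vehicle and FOXL2 siRNA + E2. Its highest values were those of FOXL2 siRNA + vehicle, and the control siRNA groups overlapped, as did the E2 groups. Its change over both treatments was 0.01 (95% interval -0.25 to 0.27, limma adjusted p = 0.954), and its E2 effect with control siRNA was -0.06 (95% interval -0.43 to 0.31). With FOXL2 siRNA the E2 value was -0.33 (SE 0.16), with the E2 arrays below the vehicle arrays, where 27.6% of all genes had no overlap.

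Cacna1h, the detected T-type pore gene, lay at 8.58 and 8.58 with control siRNA + vehicle, at 8.56 and 8.79 with control siRNA + E2, at 8.62 and 8.54 with FOXL2 siRNA + vehicle and at 8.48 and 8.29 with FOXL2 siRNA + E2. The last group lay below each of the others, where no overlap held for 48% of all genes between the E2 groups and 27.6% between the FOXL2 siRNA groups. Its change with FOXL2 siRNA was 0.00 with vehicle (95% interval -0.29 to 0.29) and -0.29 with E2 (95% interval -0.58 to 0.00, limma adjusted p = 0.304). Its 3 probes disagreed. Probe A_55_P1986596, at 9.80 to 10.33, carried nearly all of the gene's signal, with -0.33 with E2 (SE 0.12), whereas A_55_P1986591, at 4.70 to 6.04, gave 0.80 (SE 0.42), and A_52_P588378 was well above background on 0 of 8 arrays. A sign for Cacna1h therefore depends on the probe.

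The 5 members that were not kept have no fold, since each group holds arrays without a signal above background. Cacna1c, the L-type pore gene of heart and smooth muscle, stayed between 1.37 and 2.13. Cacna1d, the other L-type gene, lay between 1.65 and 3.53 and was above background on 1 array of control siRNA + vehicle and 1 of FOXL2 siRNA + E2. Cacna1g, a T-type gene, lay between 1.73 and 2.98.

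Cacnb2, the main beta subunit of heart, was above background on 1 array of FOXL2 siRNA + E2, at 3.68, where the other array of that group was at 1.37. That value came from 1 of its 3 probes, A_52_P209514, at 5.03 on that array and 1.33 on the other. Cacnb4, a beta subunit of brain, lay at 2.69 and 2.75, 2.46 and 3.06, 3.01 and 3.56, and 3.65 and 3.79 in the same order of groups as for Cacnb1. Its 2 highest values were those of FOXL2 siRNA + E2, where 1 array of 2 was well above background.

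Over the 8 arrays, the genes most like Cacna1a among 13330 were Arhgap35 (Pearson's r = 0.97), Trib2 (0.96), Slc13a3 (0.95), Tmem45a (0.95) and Tmod1 (0.95). Trib2 lay at means of 8.61, 7.72, 7.84 and 8.55 in the same order of groups, and Slc13a3 at 4.74, 2.20, 2.12 and 5.02. The low level of Slc13a3 is at the floor. It was 1.59 in control siRNA + E2 replicate 1 and 1.56 in FOXL2 siRNA + vehicle replicate 2, under the lowest signal well above background there (2.40 and 2.27). Each of the 5 took a high level in control siRNA + vehicle and FOXL2 siRNA + E2. With the control siRNA labels exchanged, each would be high with E2 under both siRNAs. Among the 5 most like Cacna2d1 were Dmwd (r = 0.995), Ank2 (0.995), Fst (0.994) and Acvr1b (0.993). Fst, the activin antagonist follistatin, lay at 11.34, 11.27, 9.34 and 9.24. The points are 4 groups of 2 arrays of the same slide, and the genes were picked for the likeness, so the values are a description.

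**Figure D5:**
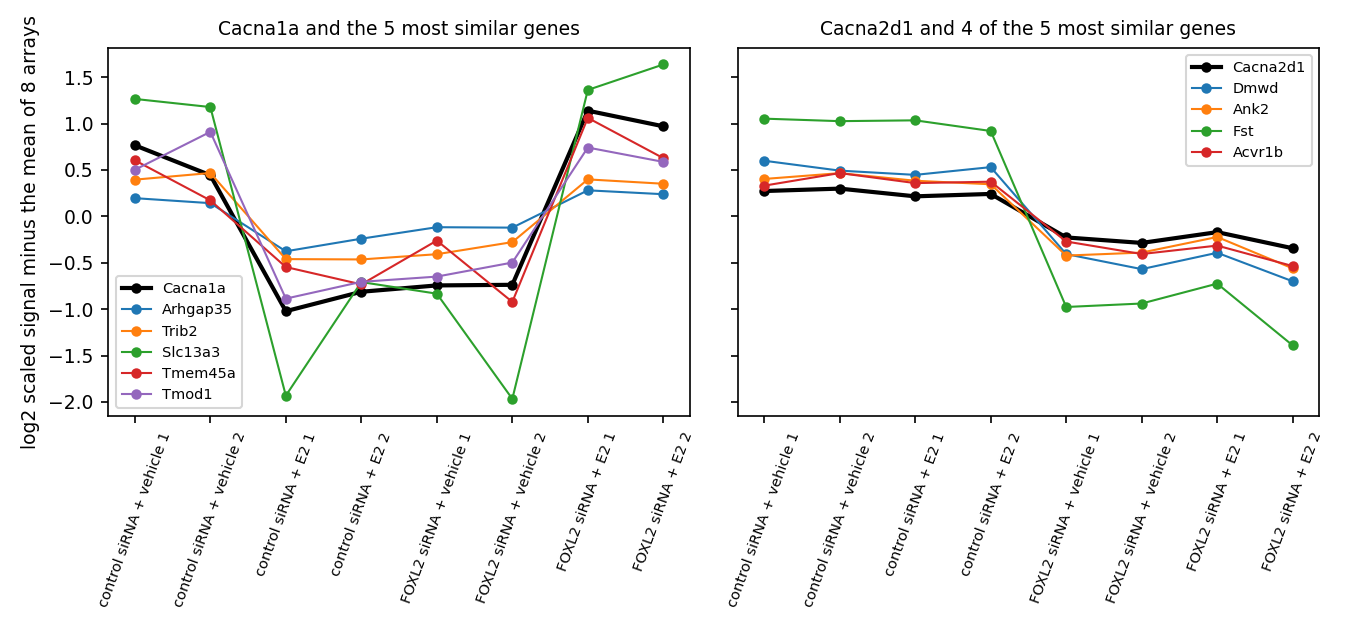
Log2 scaled signal minus the mean of the 8 arrays for Cacna1a and Cacna2d1 (black) with the 5 genes most like Cacna1a and 4 of the 5 most like Cacna2d1, and with arrays in the order of the groups and lines only to guide the eye. The left set is high in control siRNA + vehicle and FOXL2 siRNA + E2, and the right set is low on all 4 arrays labelled FOXL2 siRNA.

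Markers of other cells were examined in the same groups, and calls over both treatments stand against 12.6% of all genes. Of 5 neuron markers, 4 were well above background on all 8 arrays and Syt1, a defining marker, was on none. Their summed level, on the log2 scale, lay at 12.48 to 12.64 and 12.61 to 12.63 in the control siRNA groups and at 12.83 to 13.05 and 12.81 to 13.06 in the FOXL2 siRNA groups, and Syn1 (0.83, limma adjusted p = 0.0012) and Tubb3 (0.63, limma adjusted p = 0.0019) were higher over both treatments. The other 2 detected were not called, Rbfox3 at -0.25 (limma adjusted p = 0.76) and Snap25 at -0.04 (limma adjusted p = 0.867). Of 4 theca markers, 3 were on the array and 2 of those were detected on all 8, with Lhcgr on none. In the limma fit over both treatments 0 of the 2 were called, at 0.62 for Cyp17a1 (adjusted p = 0.11) and 0.47 for Star (adjusted p = 0.105), both with an unadjusted p under 0.05. Their summed level was 11.89 to 12.23 and 12.05 to 12.05 with control siRNA and 12.46 to 12.60 and 12.63 to 12.69 with FOXL2 siRNA. Of the smooth muscle, endothelium, blood cell and oocyte markers 0 were called over both treatments in the limma fit, with 1, 1, 0 and 0 at an unadjusted p under 0.05. The smooth muscle marker Acta2 followed the replicate number, at 11.87 to 11.98 on the 4 arrays of replicate 1 and at 13.34 to 13.55 on those of replicate 2. Of the 7 granulosa markers kept, 2 were lower over both treatments and 0 higher: Fst by 2.02 (log2 change -2.02, limma adjusted p = 0.00023) and the estrogen receptor Esr2 by 0.46 (log2 change -0.46, limma adjusted p = 0.0167). The summed granulosa level was 16.45 to 16.48 and 16.29 to 16.30 with control siRNA and 16.41 to 16.43 and 16.33 to 16.34 with FOXL2 siRNA. The part of such cells in the Cacna2d1 difference was not tested, and in these bulk samples fewer cells of a type cannot be told apart from less RNA per cell.

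The other 16 genes of the channel family on the array gave 0 calls in the 7 comparisons of the limma fit, with at most 1 gene of the 5 kept at an unadjusted p under 0.05 in any of them. Of these, 8 were well above background on no array, and 3 on all 8: the T-type pore gene Cacna1i at 3.77 to 4.89, the alpha-2-delta gene Cacna2d2 at 5.31 to 6.17 and the gamma-type gene Cacng7 at 3.89 to 5.17. Over both treatments they changed by 0.19, 0.12 and 0.10 (SE 0.26, 0.17 and 0.21) with FOXL2 siRNA, within their error.

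Among channel regulators, 8 of 11 genes were kept and 1 was called over both treatments. This was Ahnak, a large scaffold protein that binds beta subunits, which was 0.57 higher with FOXL2 siRNA (SE 0.07, limma adjusted p = 0.0025). Among genes of calcium entry and release outside the family, 13 of 17 were kept, 1 was higher and 1 lower. The store release channel Itpr1 rose by 0.28 (limma adjusted p = 0.0326) and the cation channel Trpc6 fell by 1.11 (limma adjusted p = 0.0132). Calcium removal had 10 of 12 genes kept, with the plasma membrane pump Atp2b1 0.45 higher and the sodium-calcium exchanger Slc8a1 at 49.9% of the control siRNA level (limma adjusted p = 0.0468).

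Calcium effectors had 17 of 19 genes kept, and 4 were lower and 0 higher over both treatments. The largest change of these was Camk1d, a calmodulin-dependent kinase, at -1.68 (SE 0.11, limma adjusted p = 0.000195). The others were the transcription factor gene Nfatc2 at -0.69, the calcineurin regulator Rcan2 at -0.55 and the calcineurin subunit Ppp3ca at -0.31. The kinase Camkk2 went in opposite ways, at -0.54 with vehicle and 0.54 with E2 (limma adjusted p = 0.0352 and 0.0453), which depends on the control siRNA labels, since with these exchanged the changes would be 0.16 and -0.16, neither called. With E2 against vehicle, 0 genes of these 4 lists were called with either siRNA in the limma fit, and 0 to 2 genes of each list had an unadjusted p under 0.05. The shares called over both treatments, 12.5%, 15.4%, 20.0% and 23.5%, stand against 12.6% of all genes.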

How the data were processed

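RNA of each sample (50 ng) was labelled with Cy3 and read on a separate Agilent array, and the 8 arrays shared 1 slide and 1 scan. Per the file headers, the deposited processed intensity is the spot signal after background subtraction and removal of spatial trends by the authors' software, with no scaling between arrays. The authors' table of log2 values equalled the values used here within 0.001, after 1 constant per array, at 98.6 to 98.9% of genes. The array was designed on mm9, so no gene positions are given on it.

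Here, 3671 of 62976 spots were controls and were left out, as were 39 non-uniform probes, leaving 55642. Each array was divided by its 75th percentile (275 to 367 units), probes of a gene were averaged on the linear scale, and genes with a median of at least 10 units were kept. Depending on the array, 51.4 to 55.7% of probes exceeded background clearly, and 0 spots were saturated. Groups came from the sample titles. Log2 values were fitted with limma 3.58.1 (R 4.3.3) as 4 group means over 8 arrays, with an intensity trend, two-sided, with Benjamini-Hochberg adjustment over all genes kept and a threshold of 0.05. The fit was tested on simulated data. Figures were drawn with Python 3.11.15, pandas 2.3.3 and matplotlib 3.10.9. The labels give 1 pool of mice per replicate, and deviations of same-numbered arrays correlated at 0.33 to 0.44 over the 6 pairs of groups, so same-numbered arrays were taken to share a pool. Calls with the replicate number as a block are given where they differ for a member. For the markers and the other gene lists only the fit without the block was read. Array number, 2 per group, limits precision.

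The members, the neighbouring gene lists, the markers, the tests and the promoter motifs were chosen with earlier results of these data known. All 10 members were named, and list genes where called, at most 3 per direction, except that all 4 calcium effectors called lower over both treatments are named. The 5 genes most like each called member had the highest correlation among genes with an ordinary symbol that were well above background on at least 4 arrays, and 1 of them is not reported here. The alternatives were normexp background correction on the median spot signal, in place of the mean, quantile normalization, centring, the authors' table, other filters, the brightest probe, no trend, only the groups compared, a replicate block, leaving out each array, the study's own rule and, chosen after seeing the data, single probes, crosswise groups and the vehicle and E2 labels of the control siRNA arrays exchanged.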

Additional observations from a re-analysis of the deposited data

Results flagged for a closer look

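Cacna1a was singled out because the difference between its E2 effects under the 2 siRNAs, 3.32 on the log2 scale, was called. The 2 effects pointed in opposite directions. The E2 arrays lay below the vehicle arrays with control siRNA and above them with FOXL2 siRNA, for both probes. The gene was taken up for its E2 change with FOXL2 siRNA, which is one part of that difference, so nothing is read from the call. The direction with control siRNA is opposite to that of the study's table, and with the vehicle and E2 labels of the control siRNA arrays exchanged the difference would be 0.27 and both E2 effects would be positive. As labelled, a difference of at least 1 that exceeds 2 times the summed SDs was found lower with E2 and control siRNA for 62 genes and higher for 9. Which labels hold was not tested, so the opposite E2 effects of Cacna1a cannot be read as an effect of FOXL2 siRNA.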

How the results depend on the processing

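The call of Cacna2d1 over both treatments held in 20 of 20 alternative fits, at -0.57 to -0.47, and by treatment in 17 of 21 with vehicle and 14 of 21 with E2. The number of members called moved as follows, and where Cacna1a is counted nothing is read from it. E2 with control siRNA went from 0 to 1 (Cacna1a) with normexp, with the replicate block and with the study's rule, a difference of at least 1 that exceeds 2 times the summed SDs. E2 with FOXL2 siRNA went from 1 to 0 with no filter, with the brightest probe, without the intensity trend and when the other groups were left out of the fit, and ranged from 0 to 1 when arrays were left out. FOXL2 siRNA with vehicle went from 2 to 1 with the study's rule and to 3 with the block, which added Cacnb3, and ranged from 1 to 2 when arrays were left out. With E2 it went from 2 to 1 with the study's rule, without the trend and when the other groups were left out, and again ranged from 1 to 2. Over both treatments it went from 1 to 3 with the block. With the vehicle and E2 labels of the control siRNA arrays exchanged, chosen after seeing the data, FOXL2 siRNA with vehicle and with E2 each went from 2 to 1, E2 over both siRNAs from 0 to 1 and the difference from 1 to 0. The exchange makes the crosswise comparisons. Without the filter more genes entered the fit, but whether this moved the count was not tested, nor were the causes in the other alternatives. With the replicate block Cacna1a was called for E2 with control siRNA, from which nothing is read, since the spread of the fit includes the arrays it was chosen on. Cacnb3 was called with FOXL2 siRNA, with vehicle and over both treatments. The block changed no other call of a member, apart from Cacna1a over both treatments, which rests on arrays it was chosen on. The block raised the genes called over both treatments from 1971 to 4326 and with E2 and control siRNA from 3 to 182.

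The exchange turned Cacna1a for FOXL2 siRNA with vehicle (0.18), Cacna1h there (-0.0879), Cacna2d1 for E2 over both siRNAs (0.0285) and for the difference (-0.0575), and, by construction, E2 with control siRNA (1.52 for Cacna1a, -0.0917 for Cacna1h, 0.0573 for Cacna2d1, 0.0601 for Cacnb1 and -0.0529 for Cacnb3). In the other alternatives signs turned only for changes that were not called. Cacna1h from probe A_55_P1986591 alone gave -0.29, 0.43, 0.80 and 0.44 (E2 with control siRNA, E2 with FOXL2 siRNA, FOXL2 siRNA with E2 and over both), with 0.0701 and 0.72 for E2 over both siRNAs and the difference. With vehicle it gave -0.0043 in the authors' table and -0.0021 with the brightest probe, which is A_55_P1986596, and for E2 over both siRNAs 0.0089 with normexp. For Cacna2d1, E2 with FOXL2 siRNA gave 0.0244 with quantile normalization, 0.0166 after centring, 0.0162 in the authors' table and 0.0596 with the brightest probe, A_55_P1988699, which gave 0.0012 with control siRNA and 0.0304 over both. Cacnb1 gave 0.0093 for E2 with control siRNA under quantile normalization. Leaving out 1 array turned signs too. Cacna1h then ranged from -0.0254 to 0.209 (E2 with control siRNA), -0.0362 to 0.0438 (FOXL2 siRNA with vehicle) and -0.113 to 0.0043 (E2 over both), Cacna2d1 from -0.087 to 0.0866 (E2 with FOXL2 siRNA), -0.0721 to 0.0147 (E2 over both) and -0.0297 to 0.144 (the difference), Cacnb1 from -0.164 to 0.0435 (E2 with control siRNA) and -0.0372 to 0.0664 (FOXL2 siRNA over both), and Cacnb3 from -0.0722 to 0.178 (E2 with control siRNA) and -0.118 to 0.0073 (E2 over both). For comparisons over all 4 groups, the study's rule and the fit without the other groups were not run, since the rule compares pairs of groups and no other group exists.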
